A study of Mus musculus with 9 samples.

Results

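The acute phase response genes are 35 genes of liver plasma proteins linked to inflammation, and of the signals that control them. They were taken by symbol from a fixed list that was drawn up with earlier results of these data known. All 35 were found among the 41388 genes counted and passed the low-count filter that left 14741 genes for testing. The list holds 2 genes known to fall in inflammation, Ttr and Alb (negative members), and the other 33 are counted here as positive members. Not all 33 are strongly induced in mice: Saa4 is constitutive and Crp responds little. Liver RNA came from male C57BL/6J mice of 3 genotypes, every one given diethylnitrosamine (DEN, a liver carcinogen) at 25 mg/kg by intraperitoneal injection at 14 days of age, fed chow and killed at 6 months. Control mice carried floxed Mttp alleles (Mttp fl/fl) without deletion. MttpLKO mice lacked Mttp in the liver, and Fabp1 Mttp DKO mice (DKO) had that deletion plus germline loss of Fabp1, which removes Fabp1 from every cell type. Mttp encodes the transfer protein that lipidates apolipoprotein B in the making of very low density lipoprotein (VLDL), and Fabp1 encodes the liver fatty acid-binding protein. By its title, the study asked about tumour formation under impaired VLDL secretion. No driver of the liver deletion is named in the labels, mice with loss of Fabp1 alone and mice without DEN were not analysed here, and the labels say liver without stating whether the tissue held tumour.

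The 9 libraries were pools, 3 per genotype, and each mixed the RNA of 3 animals, so values of single mice were not measured and p-values reflect the spread between pools. Total counts ran from 23268389 to 27918197 per library. The targeted genes checked the labels: Mttp was at 69.4 to 181 CPM (counts per 1000000 counts of the library) in control pools against 3.24 to 9.78 in all MttpLKO and DKO pools, and Fabp1 was at 50.3 to 78.0 CPM in DKO pools against 3379 to 6845 in the others. The 8 hepatocyte markers were all well expressed, with a summed 23326 to 33730 CPM. MttpLKO replicate 3 stood apart from the other libraries, with 637 CPM of B and plasma cell markers against 24.8 to 53.6 elsewhere. The 3 comparisons between genotypes share libraries and are not independent of each other.

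In inflammation, interleukin-6, interleukin-1 and tumour necrosis factor reach hepatocytes, where STAT3, NF-kB and the C/EBP factors switch on genes for secreted defence proteins. Serum amyloid A, orosomucoid, haptoglobin, fibrinogen and complement are classical products of this programme, and albumin and transthyretin are classical proteins that fall with it. SOCS3 is made in response to STAT3 and feeds back on it.

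Many of these genes sit in families side by side. The 4 serum amyloid A genes lay within 42.3 kb of chromosome 7, the 3 orosomucoid genes within 21.3 kb of chromosome 4, the 3 fibrinogen genes within 41.9 kb of chromosome 3, and Mt1 and Mt2 within 7.7 kb of chromosome 8, by the coordinates of the deposited tables. The promoter sequences of Saa1, Saa2, Orm2 and Orm3 are shown because the first 3 were high in the same DKO pools and low in the same one, while Orm3 lies beside Orm2 and did not show that contrast. They are RefSeq sequence on GRCm38.p6, written 5′ to 3′ on the strand of the gene and ending before its start, and the capitals mark a match to the C/EBP word TTGCNNAA. The Saa1 stretch is chr7:46742981-46743230 (minus strand, bases 250 to 1 before the start). The Saa2 stretch is chr7:46751583-46751789 (plus strand, bases 250 to 44 before the start). The Orm2 stretch is chr4:63362199-63362448 and the Orm3 stretch is chr4:63355908-63356157, both on the plus strand and both bases 250 to 1 before the start.
Saa1: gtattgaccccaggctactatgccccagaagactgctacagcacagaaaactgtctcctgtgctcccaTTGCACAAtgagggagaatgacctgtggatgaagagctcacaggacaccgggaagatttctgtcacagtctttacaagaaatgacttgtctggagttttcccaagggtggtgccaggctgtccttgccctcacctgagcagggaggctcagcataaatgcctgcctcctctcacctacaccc
Saa2: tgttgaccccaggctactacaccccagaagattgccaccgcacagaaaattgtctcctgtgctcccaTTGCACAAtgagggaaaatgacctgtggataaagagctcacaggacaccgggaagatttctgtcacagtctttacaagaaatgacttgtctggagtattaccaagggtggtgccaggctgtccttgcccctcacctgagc
Orm2: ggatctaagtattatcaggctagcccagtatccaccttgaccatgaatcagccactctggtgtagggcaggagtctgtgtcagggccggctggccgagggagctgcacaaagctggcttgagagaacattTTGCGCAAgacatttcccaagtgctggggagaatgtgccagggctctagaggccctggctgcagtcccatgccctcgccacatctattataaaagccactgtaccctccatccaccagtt
Orm3: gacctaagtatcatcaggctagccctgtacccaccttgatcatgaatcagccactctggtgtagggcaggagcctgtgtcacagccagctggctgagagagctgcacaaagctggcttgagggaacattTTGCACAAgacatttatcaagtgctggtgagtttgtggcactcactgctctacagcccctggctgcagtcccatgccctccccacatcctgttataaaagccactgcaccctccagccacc
The C/EBP match lay 182 to 175 bases before the start in Saa1 and 183 to 176 in Saa2, and 120 to 113 in Orm2 and 121 to 114 in Orm3. Aligned over the 250 bases, Saa1 and Saa2 were 94.8% identical and Orm2 and Orm3 85.9%. RefSeq gave promoters for 26 of the 35 members, 29 windows in all, and none was held for C4b, Cd14, Cfb, Hp, Lbp, Orm1, Serpina3k, Serpina3m and Ttr.

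Among those windows, searched on both strands over the 250 bases before the start, the C/EBP word TTGCNNAA was in 51.7% of member promoters against 9.56% of 32851 mouse promoters. It was found in 15 members, namely Saa1, Saa2, Saa3, Saa4, Orm2, Orm3, Lcn2, Hpx, C3, Cp, Fga, Fgb, Steap4, Mt2 and Alb. The STAT word TTCNNNGAA was in 20.7% of member promoters against 7.02% of all, in Apcs, Fga, Fgb, Itih4, Socs3 and Steap4. An NF-kB consensus was found in Steap4 alone, 3.4% against 7.25%, and the metal response words TGCACNC and TGCGCNC were in 13.8% against 21.4%, in Fgg, Orm3, Mt1 and Mt2. A match is a description of the letters, and the absence of one says only that the word is not in this window. Matches in neighbours of like sequence, such as Saa1 and Saa2, are not independent. The comparison set was all mouse promoters and was not limited to genes of liver.

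Among all 35 members, Lcn2 was the only one to pass the test, and it rose 7.43-fold in DKO against control. Tests were edgeR's quasi-likelihood test with Benjamini-Hochberg adjustment over all 14741 genes, and "called" means an adjusted p under 0.05. In MttpLKO against control no member was called, where 0.346% of all tested genes were. With an unadjusted p under 0.05, 3 members were higher and 2 lower, beside 6.97% of all genes, and limma-voom called 0 and DESeq2 called 2 (Il1rn and Lcn2). In DKO against MttpLKO no member was called, where 0.4% of all genes were. There, 12 members were higher and 2 lower at an unadjusted p under 0.05, beside 9.1% of all genes, and limma-voom called 0 and DESeq2 called 2 (Fga and Saa2). In DKO against control 1 member was called, where 0.332% of all genes were, and 14 members were higher and 1 lower at an unadjusted p under 0.05, beside 11.2% of all genes. For that comparison limma-voom called 1 member and DESeq2 called 5 (Lcn2, Il1rn, Saa2 and Cfb higher, Ttr lower). Of all tested genes DESeq2 called 165, 214 and 256 in the 3 comparisons in the order above, limma-voom 41, 56 and 35, and edgeR 51, 59 and 49. Without DKO replicate 2, edgeR called 3 members in DKO against MttpLKO (Saa1, Saa2 and Orm2), where it called 37 of all genes. In DKO against control it then called 5 members (Lcn2, Saa1, Saa2 and Orm2 higher, Ttr lower), where it called 67 of all genes. That pool was the lowest DKO pool for Saa1, Saa2 and Orm2. Without DKO replicate 3, edgeR called 0 members in both comparisons. Without MttpLKO replicate 3, the counts were 0, 0 and 1.

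The median log2 fold change over the 35 members was 0.15 in MttpLKO against control, 0.41 in DKO against MttpLKO and 0.39 in DKO against control. The medians over all tested genes were 0.011, -0.0164 and -0.00186. The 33 positive members had positive log2 fold changes in 23, 27 and 30 cases in the same order, beside 52.3%, 46.9% and 49.6% of all tested genes. In MttpLKO against control, all 3 pools of one genotype lay above all 3 of the other for 9 members and below for 3, beside 7.27% and 6.99% of all genes. In DKO against MttpLKO the counts were 5 and 1, beside 5.67% and 5.83%. In DKO against control they were 7 and 1, beside 8.95% and 9.18%. In bulk tissue, fewer cells of a type and less RNA per cell cannot be told apart. The plot of fitted differences gives every member with its standard error (SE).

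**Figure D1:**
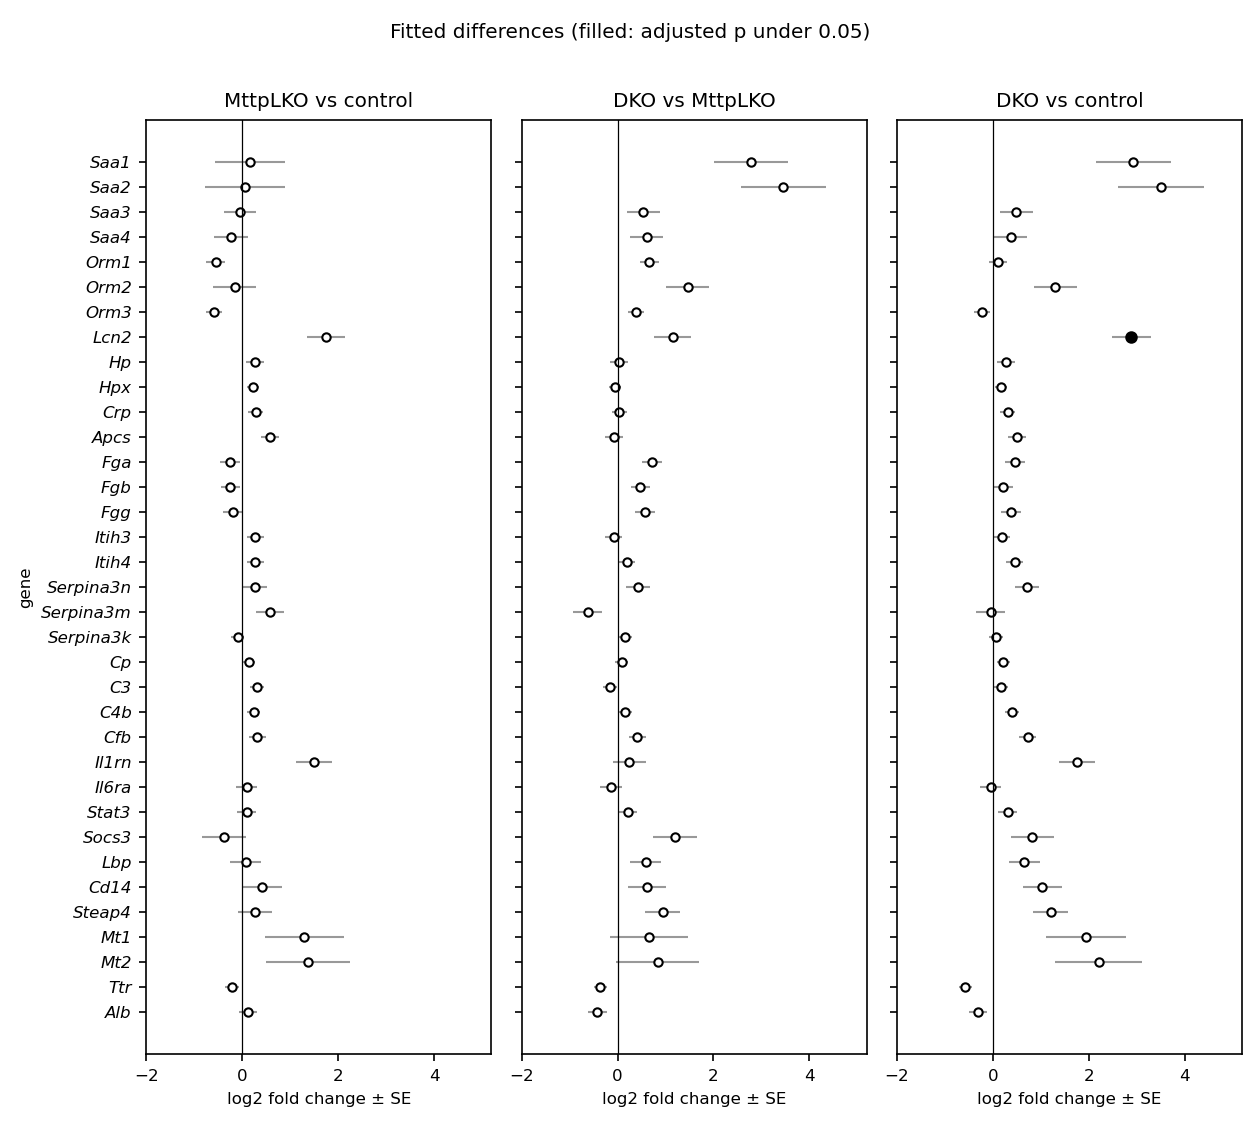
Log2 fold change with its SE (x axis) for each of the 35 genes (y axis) in MttpLKO against control, DKO against MttpLKO and DKO against control, 3 pools per genotype. The filled point marks Lcn2 in DKO against control, the only gene with an adjusted p under 0.05. Saa1, Saa2, Mt1 and Mt2 have the longest error bars.

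Serum amyloid A proteins ride on high density lipoprotein and are among the most inducible liver products. Saa1 (chromosome 7, 46740501 to 46742980, ENSMUSG00000074115) was at 64.3, 55.2 and 52.8 in control replicates 1, 2 and 3, 33.9, 116 and 41.4 in MttpLKO and 531, 46.0 and 739 in DKO CPM. DKO replicates 1 and 3 stood above all other libraries, while DKO replicate 2 lay below every control pool, so the genotypes overlapped. The highest DKO pool was 16.1 times the lowest, against 1.22 times among control pools. The group means were 57.5 ± 6.05 CPM (SD, n = 3) in control, 63.9 ± 45.6 CPM in MttpLKO and 439 ± 356 CPM in DKO. The log2 fold change was 2.78 ± 0.77 (SE) in DKO against MttpLKO and 2.93 ± 0.78 in DKO against control, with adjusted p of 0.252 and 0.2 in edgeR's test. In MttpLKO against control it was 0.15 ± 0.73, with MttpLKO replicate 2 the highest of those 6 pools.

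Saa2 (chromosome 7, 46751833 to 46754314, ENSMUSG00000057465) is the inducible neighbour of Saa1. It was at 22.2, 20.2 and 22.3 in control replicates 1, 2 and 3, 13.0, 35.8 and 18.0 in MttpLKO and 251, 12.3 and 473 in DKO CPM. The order of the DKO pools was that of Saa1, and the highest was 38.6 times the lowest. Only 0.197% of all tested genes had a wider ratio between DKO pools than Saa1, and 0.149% a wider one than Saa2. The log2 fold change of Saa2 was 3.46 ± 0.90 in DKO against MttpLKO (adjusted p = 0.205, edgeR) and 3.51 ± 0.90 in DKO against control (adjusted p = 0.179). With DKO replicate 2 left out, both genes were called: Saa1 at log2 3.33 and 3.48 (adjusted p = 0.0242 and 0.0176) and Saa2 at 4.03 and 4.08 (adjusted p = 0.00291 and 0.00423), against MttpLKO and control. The 2 genes share sequence: over all annotated transcripts of Saa1, 31.1% of its 2519 different 50-base words occur in Saa2. The counted exons of Saa1 hold only 605 bases, so this is not the share of the counted sequence. Reads may have been split between the 2 genes.

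Saa3, made in many tissues and not only in hepatocytes, and Saa4, the constitutive member, differed less. Saa3 was at 6.75, 15.0 and 17.4 in control replicates 1, 2 and 3, 11.7, 14.8 and 11.3 in MttpLKO and 15.1, 12.7 and 27.2 in DKO CPM. DKO replicate 3 was the highest library and control replicate 1 the lowest, and the groups overlapped. Its log2 fold change was 0.54 ± 0.34 in DKO against MttpLKO and 0.49 ± 0.34 against control, neither called (adjusted p = 0.679 and 0.646, edgeR). Saa4 was at 534, 438 and 1229 CPM in DKO, where replicate 3 was again the highest. It was at 511 to 601 CPM in control and 340 to 655 in MttpLKO. Per length, the control pools held 281 RPKM of Saa4 (CPM per kilobase of transcript), 95.0 of Saa1, 35.3 of Saa2 and 24.5 of Saa3. In DKO the order was 725 RPKM of Saa1, 402 of Saa2, 364 of Saa4 and 34.6 of Saa3, with the spread between pools given above.

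**Figure D2:**
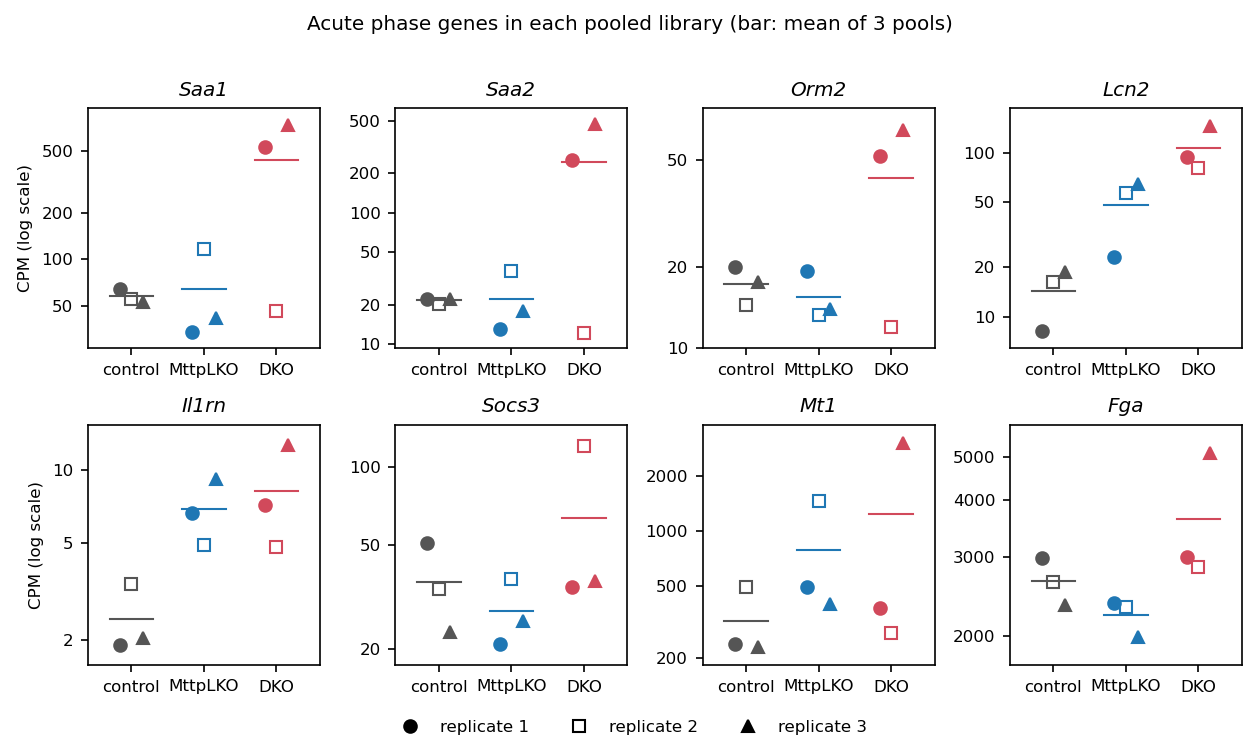
Level of 8 genes in each of the 9 pooled libraries (y axis, CPM on a log scale; x axis, genotype), with the mean of 3 pools as a bar. Saa1, Saa2 and Orm2 are high in DKO replicates 1 and 3 and low in replicate 2, Socs3 is highest in DKO replicate 2, Mt1 in DKO replicate 3, and the Lcn2 pools of the 3 genotypes do not overlap.

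The orosomucoids are acidic plasma glycoproteins that bind drugs and lipids. Orm1, the most abundant of the family, was at 622, 473 and 454 in control replicates 1, 2 and 3, 405, 329 and 321 in MttpLKO and 626, 399 and 644 in DKO CPM. All MttpLKO pools lay below all control pools, and DKO replicates 1 and 3 were above the highest control pool with replicate 2 below the lowest. Orm1 had, in MttpLKO against control, a log2 fold change of -0.55 ± 0.20 (adjusted p = 0.533, edgeR) and in DKO against MttpLKO one of 0.66 ± 0.20 (adjusted p = 0.292). Orm2 (chromosome 4, 63362449 to 63365878, ENSMUSG00000061540) was at 19.97, 14.4 and 17.5 in control replicates 1, 2 and 3, 19.3, 13.2 and 13.9 in MttpLKO and 51.5, 11.9 and 64.6 in DKO CPM. As for Saa1 and Saa2, DKO replicates 1 and 3 were the highest libraries, and DKO replicate 2 was the lowest of all 9, as it was for Saa2 but not for Saa1. Its log2 fold change was 1.46 ± 0.45 against MttpLKO (adjusted p = 0.319, edgeR) and 1.30 ± 0.45 against control (adjusted p = 0.321). Without DKO replicate 2, the lowest DKO pool, these were 1.92 (adjusted p = 0.00311, edgeR) and 1.76 (adjusted p = 0.00764), and both were called. Without DKO replicate 3 they were 1.04 and 0.87, and neither was called.

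Orm3, whose promoter is close in sequence to that of Orm2, was at 13.8, 10.3 and 10.9 in control replicates 1, 2 and 3, 7.56, 8.34 and 7.19 in MttpLKO and 11.9, 8.52 and 9.59 in DKO CPM. The MttpLKO pools were all below the control and the DKO pools, and the DKO pools did not spread as those of Orm2 did, with a highest 1.402 times the lowest against 5.42 times for Orm2. Its log2 fold change was -0.60 ± 0.17 in MttpLKO against control and 0.38 ± 0.17 in DKO against MttpLKO, with adjusted p of 0.306 and 0.535 in edgeR's test. All 3 orosomucoid genes had a negative log2 fold change in MttpLKO against control, from -0.60 to -0.16. Orm1 and Orm2 share 20.4% of their 50-base words, so their values are not fully separate.

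Lcn2 (lipocalin 2, a carrier of the iron-binding compounds of bacteria; chromosome 2, 32384633 to 32387797, ENSMUSG00000026822) was at 8.13, 16.3 and 18.7 in control replicates 1, 2 and 3, 23.1, 56.8 and 64.5 in MttpLKO and 93.4, 80.7 and 146 in DKO CPM. The 3 genotypes did not overlap at either step: the highest control pool lay below the lowest MttpLKO pool, and the highest MttpLKO pool below the lowest DKO pool. DKO replicate 2, which was low for the serum amyloid and orosomucoid genes, was at 80.7 CPM and thus above all control and MttpLKO pools. Means were 14.3 ± 5.52 CPM (SD, n = 3), 48.1 ± 22.0 CPM and 107 ± 34.7 CPM. In DKO against control the log2 fold change was 2.89 ± 0.41 (SE), with an adjusted p of 0.0137 in edgeR's test. It was 1.74 ± 0.40 in MttpLKO against control (adjusted p = 0.148) and 1.15 ± 0.38 in DKO against MttpLKO (adjusted p = 0.368, edgeR), neither called.

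The call for Lcn2 was lost when control replicate 1, 2 or 3 or DKO replicate 3 was left out, at adjusted p of 0.0536, 0.0737, 0.0587 and 0.0532 with log2 fold changes of 2.63, 2.99, 3.12 and 2.59. Without MttpLKO replicate 1, the step from control to MttpLKO was called (log2 2.08, adjusted p = 0.0311, edgeR). Lcn2 shared no 50-base word with another gene. Neutrophils store this protein in granules, and of the 12 neutrophil markers only 4 passed the low-count filter. Their summed level over the 12 was 2.97 to 13.7 CPM in control, 1.95 to 5.004 in MttpLKO and 6.68 to 7.56 in DKO. The granule and surface genes Ly6g, Mpo, Ngp, Camp, Ltf and Elane had 0 to 7 counts in every library. The 4 tested markers, S100a8, S100a9, Csf3r and Retnlg, had log2 fold changes of -1.795 to -0.90 in MttpLKO against control. These were 0.96 to 1.73 in DKO against MttpLKO and -0.61 to 0.06 in DKO against control, none called. The part of neutrophils in the level of Lcn2 was not tested.

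The other metal and haem proteins differed less. Hp (haptoglobin, which binds free haemoglobin) was at 4508, 5641 and 5656 in control replicates 1, 2 and 3, 5891, 7538 and 5463 in MttpLKO and 5979, 5151 and 8060.4 in DKO CPM. Its groups overlapped, DKO replicate 3 was the highest library, and the log2 fold change was 0.26 ± 0.19 in MttpLKO against control and 0.02 ± 0.19 in DKO against MttpLKO. Hpx (hemopexin, which binds haem) and Cp (ceruloplasmin, the copper carrier of plasma) had log2 fold changes between -0.06 and 0.22 in the 3 comparisons. Steap4, a metal reductase of the cell membrane, was at 95.9, 64.4 and 70.3 CPM in control, 77.9, 99.3 and 101 in MttpLKO and 133, 90.9 and 309 in DKO. DKO replicate 3 was the highest and DKO replicate 2 lay among the control and MttpLKO pools. Its log2 fold change was 1.21 ± 0.36 in DKO against control (adjusted p = 0.243, edgeR).

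The pentraxins are ring-shaped proteins that recognise damaged cells and microbes. Apcs (serum amyloid P, the main acute phase pentraxin of mice) was at 24.9, 34.3 and 34.1 in control replicates 1, 2 and 3, 56.7, 41.9 and 40.7 in MttpLKO and 55.9, 37.9 and 38.5 in DKO CPM. All MttpLKO and DKO pools lay above all control pools, with replicate 1 the highest in both. Against control, its log2 fold change was 0.58 ± 0.19 in MttpLKO (adjusted p = 0.477, edgeR) and 0.50 ± 0.19 in DKO (adjusted p = 0.363), neither called. Crp, which responds little in mice, was at 272, 239 and 251 CPM in control, 289.6, 329 and 304 in MttpLKO and 285, 258 and 404 in DKO, with log2 fold changes of 0.28 and 0.31 against control.

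The 3 fibrinogen genes encode the chains of the clotting protein that becomes fibrin. For all 3 chains every DKO pool lay above every MttpLKO pool. Fga was at 2984, 2630.0 and 2342 in control replicates 1, 2 and 3, 2365, 2317 and 1991 in MttpLKO and 2992, 2842 and 5094 in DKO CPM. DKO replicate 3 was far above the other 8 libraries, and DKO replicates 1 and 2 were within or near the range of control. In DKO against MttpLKO the log2 fold change was 0.71 ± 0.21 for Fga, 0.48 ± 0.20 for Fgb and 0.57 ± 0.21 for Fgg, with adjusted p of 0.293, 0.506 and 0.423 in edgeR's test, none called. In MttpLKO against control the 3 values were -0.25, -0.26 and -0.20, and in DKO against control 0.46, 0.22 and 0.38. Left without DKO replicate 3, the DKO against MttpLKO value of Fga was 0.40.

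The protease inhibitors of the list are the alpha-1-antichymotrypsin relatives of the Serpina3 cluster and the inter-alpha-trypsin inhibitor heavy chains. Serpina3n was at 401, 404 and 395 in control replicates 1, 2 and 3, 465, 563 and 419 in MttpLKO and 492, 469 and 994 in DKO CPM. The control pools lay within 1.02 times of each other, all MttpLKO and DKO pools were above them, and DKO replicate 3 was the highest. Its log2 fold change was 0.27 ± 0.25 in MttpLKO and 0.70 ± 0.25 in DKO, each against control (adjusted p = 0.945 and 0.336, edgeR), and the DKO value was 0.26 without DKO replicate 3. Serpina3k, the most abundant member of the cluster, had log2 fold changes between -0.09 and 0.16. Serpina3m went from 259, 355 and 182 CPM in MttpLKO to 120.2, 136 and 260.4 in DKO, with a log2 fold change of -0.62 ± 0.30 (adjusted p = 0.565, edgeR) and overlapping pools. Itih3 and Itih4 had log2 fold changes from -0.08 to 0.46.

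Complement members differed by small amounts. C3, the central protein of the complement cascade, was at 5612, 5375 and 5580.1 in control replicates 1, 2 and 3, 7838, 6637 and 6118 in MttpLKO and 5976, 5396 and 7185 in DKO CPM. All MttpLKO pools lay above all control pools, and the log2 fold change was 0.31 ± 0.14 (adjusted p = 0.725, edgeR), against -0.15 ± 0.14 in DKO against MttpLKO. C4b had log2 fold changes of 0.24 and 0.39 against control in MttpLKO and DKO, and shares 34.6% of its 50-base words with C4a. Cfb, which activates the alternative pathway, was at 11.8, 9.48 and 8.32 in control replicates 1, 2 and 3, 14.2, 12.5 and 10.2 in MttpLKO and 16.7, 13.8 and 18.5 in DKO CPM. The DKO pools were all above the control pools, and the log2 fold change was 0.73 ± 0.18 (adjusted p = 0.15, edgeR). Of the 2825 exon bases of Cfb, 79.5% lie in another annotated gene, Gm20547, on the same strand and with 0 counts in all libraries, so the level of Cfb is uncertain.

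Of the cytokine signalling genes, Il1rn had the widest separation from control. Il1rn encodes the antagonist that blocks the interleukin-1 receptor, and was at 1.90, 3.39 and 2.03 in control replicates 1, 2 and 3, 6.68, 4.92 and 9.19 in MttpLKO and 7.19, 4.81 and 12.7 in DKO CPM. All MttpLKO and all DKO pools lay above all control pools, and the MttpLKO and DKO pools overlapped. Against control, Il1rn had a log2 fold change of 1.51 ± 0.37 in MttpLKO (adjusted p = 0.213, edgeR) and of 1.75 ± 0.38 in DKO (adjusted p = 0.103). At 0.760 RPKM in control, Il1rn had the lowest level per length of the 35 members.

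Socs3, the feedback inhibitor of STAT3, was at 51.1, 34.0 and 23.3 in control replicates 1, 2 and 3, 20.8, 37.1 and 25.6 in MttpLKO and 34.6, 121 and 36.4 in DKO CPM. DKO replicate 2 was the highest of the 9 libraries, the reverse of its place for Saa1, Saa2 and Orm2, while DKO replicates 1 and 3 lay within the control range. In DKO against MttpLKO its log2 fold change was 1.20 ± 0.46 (adjusted p = 0.468, edgeR), and 0.36 without DKO replicate 2. Against control it was 0.83 ± 0.46, and -0.02 without DKO replicate 2. Stat3, the transcription factor that carries the interleukin-6 signal, was at 120.4, 103 and 89.2 in control replicates 1, 2 and 3, 107, 136 and 91.0 in MttpLKO and 119, 102 and 166 in DKO CPM. Its groups overlapped, and the log2 fold change in DKO against control was 0.31 ± 0.20 (adjusted p = 0.612, edgeR). Il6ra, the receptor chain that binds interleukin-6, had log2 fold changes from -0.14 to 0.09.

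Lbp and Cd14 hand bacterial lipopolysaccharide to its receptor. Lbp was at 97.1, 131 and 151 CPM in control, 132, 170 and 94.8 in MttpLKO and 135, 144 and 319 in DKO. DKO replicate 3 was the highest library of all, and the groups overlapped. Cd14 is largely a gene of monocytes and macrophages. It was at 1.62, 1.54 and 1.09 CPM in control, 0.802, 1.91 and 2.93 in MttpLKO and 2.13, 3.53 and 3.05 in DKO. Its DKO pools were all above its control pools, with a log2 fold change of 1.04 ± 0.40 (adjusted p = 0.374, edgeR). The DKO and MttpLKO pools of Cd14 overlapped, at 0.62 ± 0.40 (adjusted p = 0.683, edgeR). The summed level of 10 Kupffer cell markers, the resident macrophages of liver, was 207, 150 and 149 CPM in control, 59.0, 75.3 and 201 in MttpLKO and 209, 238 and 102 in DKO, so that DKO replicate 3 was the lowest and replicate 2 the highest of the DKO pools. The 8 recruited macrophage markers summed to 21.5, 22.4 and 25.8 CPM in control. Their sums were 22.7, 26.0 and 35.7 CPM in MttpLKO and 29.4, 25.6 and 28.4 in DKO. In MttpLKO against control, 9 of the 10 Kupffer cell markers had negative log2 fold changes. All 7 tested recruited macrophage markers had positive ones there, and none of either list was called. The part of either cell type in these results was not tested.

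The metallothioneins bind zinc and copper and respond to metals, glucocorticoids and inflammation. Mt1 was at 239.8, 493 and 229 in control replicates 1, 2 and 3, 492, 1470.4 and 395 in MttpLKO and 378, 274 and 3064 in DKO CPM. Single pools set the spread: DKO replicate 3 and then MttpLKO replicate 2 were the highest, and DKO replicates 1 and 2 lay within the control range. Mt2 was at 75.5, 199.8 and 83.2 in control replicates 1, 2 and 3, 189, 625 and 114 in MttpLKO and 193, 108 and 1355 in DKO CPM. The same pools were high, and the highest DKO pool was 11.2 times the lowest for Mt1 and 12.6 times for Mt2. In DKO against control the log2 fold change was 1.95 ± 0.84 for Mt1 and 2.21 ± 0.90 for Mt2 (adjusted p = 0.417 and 0.395, edgeR), and 0.02 and 0.32 without DKO replicate 3. In DKO against MttpLKO the values 0.66 and 0.84 turned to -1.27 and -1.04 without that pool. Over the annotated transcripts of Mt2, 45.8% of the 50-base words are shared with Gm45774.

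Neither of the 2 negative members was called, and the DKO pools of Ttr lay apart from the other genotypes while those of Alb overlapped with them. Ttr (transthyretin, the carrier of thyroid hormone and retinol-binding protein) was at 11381, 12028 and 11544 in control replicates 1, 2 and 3, 9608, 10232 and 10225 in MttpLKO and 6777, 9352 and 7312 in DKO CPM. All MttpLKO pools lay below all control pools, and all DKO pools below all MttpLKO pools. The log2 fold change was -0.58 ± 0.14 in DKO against control (adjusted p = 0.149, edgeR), -0.22 ± 0.14 in MttpLKO against control and -0.36 ± 0.14 in DKO against MttpLKO. Without DKO replicate 2, the highest DKO pool, the first of these was -0.72 and called (adjusted p = 0.0414, edgeR). Without DKO replicate 1 it was -0.48 and not called. Alb (albumin, the most abundant plasma protein) was at 59502, 61015 and 50658 in control replicates 1, 2 and 3, 57789, 57867 and 69252 in MttpLKO and 34963, 45072 and 58243 in DKO CPM. DKO replicates 1 and 2 lay below the other 7 libraries and DKO replicate 3 within their range, and the log2 fold change in DKO against MttpLKO was -0.42 ± 0.19 (adjusted p = 0.541, edgeR).

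Within DKO, most positive members ranked the pools alike. Of the 33 positive members, DKO replicate 3 was the highest DKO pool for 28 and the lowest for 0, where it was the highest for 37.4% and the lowest for 33.9% of all tested genes. DKO replicate 2 was the lowest DKO pool for 26 members, against 37.5% of all genes, and the highest for 2. In MttpLKO, replicate 2 was the highest pool for 18 members, against 26.5% of all genes, and replicate 3, the library that stood apart, was the lowest for 19, against 36.4%.

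DKO replicate 3 lay more than 2-fold above every control pool for 11 positive members, beside 1.44% of all genes: Saa1, Saa2, Saa4, Orm2, Lcn2, Serpina3n, Il1rn, Lbp, Steap4, Mt1 and Mt2. For DKO replicate 1 there were 5 (Saa1, Saa2, Orm2, Lcn2 and Il1rn), beside 1.31% of all genes. DKO replicate 2 had 3 such members, beside 0.773%, and apart from Lcn2 they were other genes, Socs3 and Cd14. In MttpLKO, replicate 1 had 0, replicate 2 had 3 (Lcn2, Mt1 and Mt2) and replicate 3 had 2 (Lcn2 and Il1rn), beside 0.624%, 0.692% and 3.3% of all genes. With no fold limit, 19, 9 and 30 positive members lay above every control pool in DKO replicates 1, 2 and 3. The shares of all genes were 31%, 29.8% and 34.9%. For MttpLKO replicates 1, 2 and 3 the counts were 14, 23 and 12, beside 31.7%, 29% and 32.3%.

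Across the 35 members, the median ratio of the highest to the lowest pool was 1.32 in control, 1.34 in MttpLKO and 1.69 in DKO, beside 1.22, 1.33 and 1.36 over all genes. The ratio exceeded 2 for 13 members in DKO, beside 15.1% of all genes, against 5 in control, beside 8.83%, and 6 in MttpLKO, beside 16.7%. The summed hepatocyte markers were at 23326, 26644 and 28770 CPM in DKO replicates 1, 2 and 3. Of 4 adipocyte markers only Cfd passed the low-count filter, and it was at 11.7, 56.6 and 2.29 CPM in DKO against 1.29 to 7.52 in the other pools. Adipoq, Plin1 and Lep had 0 to 5 counts in every library. The part of these cell types in the differences between pools was not tested.

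**Figure D3:**
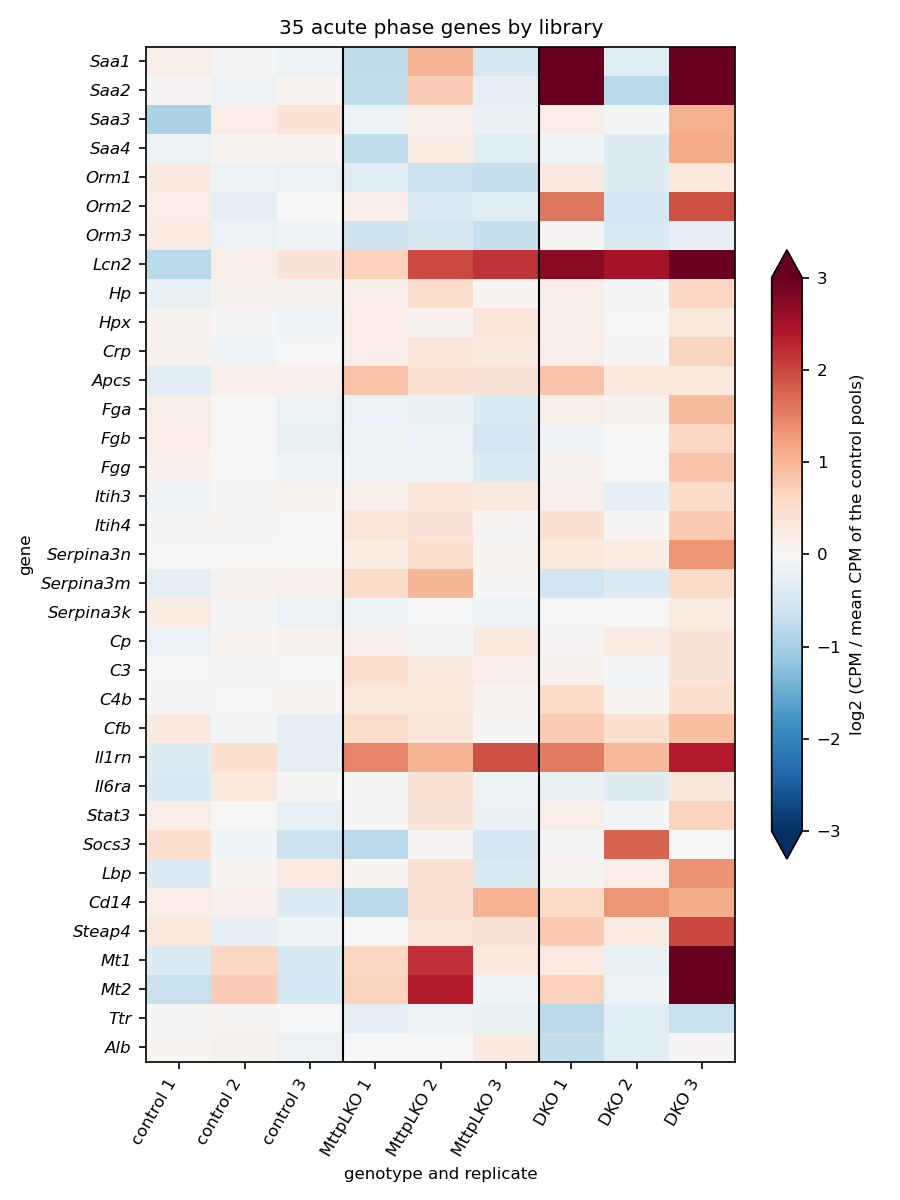
Log2 ratio of CPM to the mean of the 3 control pools (colour, cut at -3 and 3) for the 35 genes (rows) in the 9 libraries (columns). The column of DKO replicate 3 is red for most positive members, DKO replicate 2 is paler, with Lcn2, Socs3 and Cd14 its darkest reds, and Ttr is blue in all 3 DKO pools.

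Levels per length spanned a wide range in control pools. Alb was at 27929 RPKM, Ttr at 9558, Hp at 3923 and Serpina3k at 3769.7, and at the other end stood Lcn2 at 6.23, Cfb at 3.50, Cd14 at 0.900 and Il1rn at 0.760. In DKO, Lcn2 was at 46.4 RPKM and Saa1 at 725, still below Fga at 1085.

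**Figure D4:**
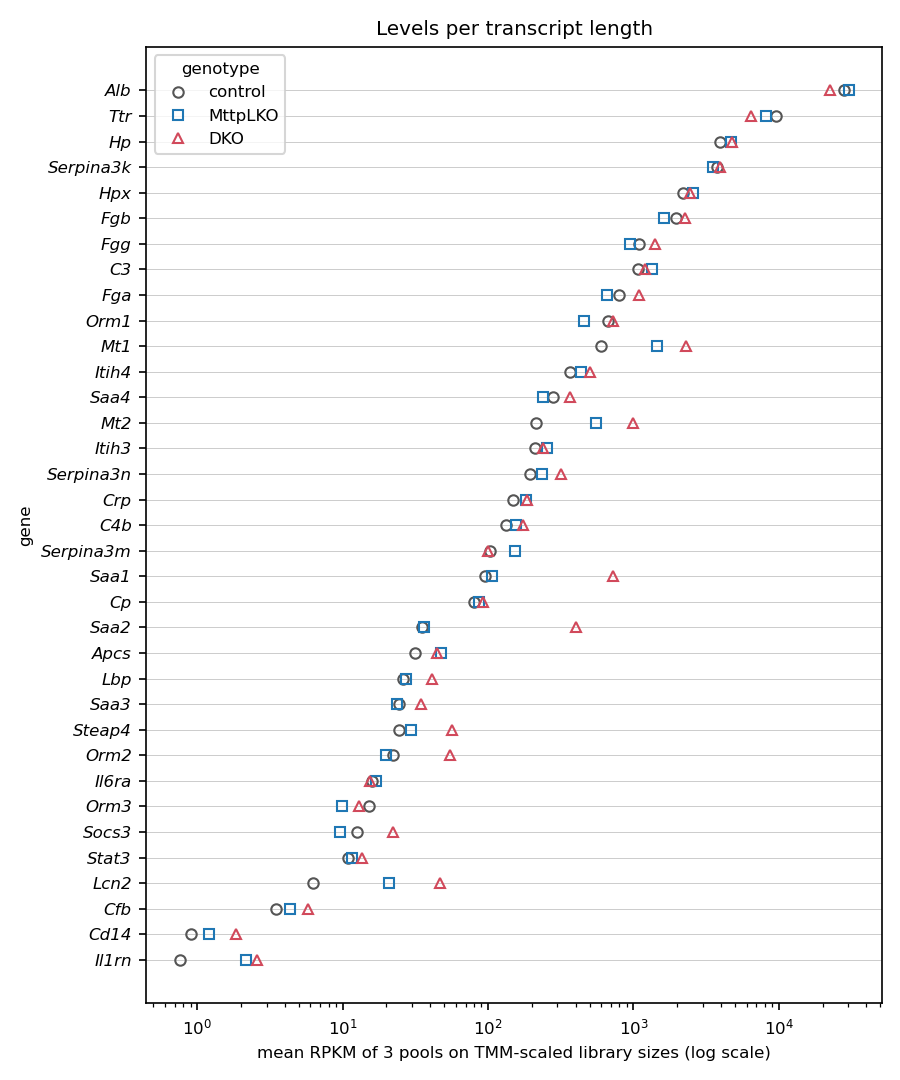
Mean level per length of the 35 genes (y axis, ordered by control) in RPKM on a log axis, for control, MttpLKO and DKO (mean of 3 pools, no error shown). Saa2, Saa1 and Lcn2 have the widest distance between control and DKO means, and Alb and Ttr lie at the top in all 3 genotypes.

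The signalling genes upstream of this programme gave no edgeR call. Of 40 genes for cytokines, receptors, kinases and transcription factors of the pathway, 37 were tested and edgeR called 0 in each comparison. With an unadjusted p under 0.05 stood 2, 5 and 1 genes in MttpLKO against control, DKO against MttpLKO and DKO against control, beside 6.97%, 9.1% and 11.2% of all genes. DESeq2 called 0, 1 (Tnfrsf1a) and 0, and limma-voom 0 in each. Il6 had 0 counts in all 9 libraries, and Tnf had 0 to 19. A 0 in 1 library taken alone allows an expected count of up to 3 by counting error. Counts of 0 in all 9 libraries together allow less in each. Tnfrsf1a, the main receptor for tumour necrosis factor, was at 78.7, 84.9 and 81.3 in control replicates 1, 2 and 3, 74.1, 60.4 and 61.1 in MttpLKO and 90.4, 86.0 and 109 in DKO CPM. Its MttpLKO pools were all lower than its control and DKO pools, with a log2 fold change of 0.54 ± 0.12 in DKO against MttpLKO (adjusted p = 0.129, edgeR). Pias3, an inhibitor of STAT3, differed by -0.43 in MttpLKO against control, Nfkb2, an NF-kB subunit, by -0.42 in DKO against MttpLKO, and Il1rap, the shared chain of interleukin-1 receptors, by -0.25 in DKO against control (log2 fold changes, none called).

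Of 20 further positive acute phase genes outside the 35 members, 19 were tested and edgeR called 1, Hamp (hepcidin, the hormone that limits iron uptake), which fell in DKO against MttpLKO. Hamp was at 1011, 1139 and 1217 in control replicates 1, 2 and 3, 1459, 2519 and 2667 in MttpLKO and 1078, 901 and 1015 in DKO CPM. The MttpLKO pools were all above the control and DKO pools, and the log2 fold change was -1.15 ± 0.20 (adjusted p = 0.0414, edgeR). The call was lost when any 1 library other than MttpLKO replicate 1 was left out, with adjusted p up to 0.215, and at 0.133 with the 6 compared libraries alone. In MttpLKO against control it was 0.98 ± 0.20 (adjusted p = 0.109), called by DESeq2 and not by edgeR or limma-voom. At an unadjusted p under 0.05 the 19 tested genes had 5 higher and 0 lower in MttpLKO against control, beside 6.97% of all genes. There were 3 higher and 2 lower in DKO against MttpLKO, beside 9.1%, and 3 higher and 0 lower in DKO against control, beside 11.2%. DESeq2 called 1 gene (Hamp), 3 (Hamp lower, Vnn1 and Lrg1 higher) and 2 (Fgl1 and Lrg1 higher) in the same order, and limma-voom 0, 1 (Hamp) and 0.

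Lrg1, a leucine-rich glycoprotein of the acute phase, was at 703, 700.1 and 801 in control replicates 1, 2 and 3, 650.1, 863 and 515 in MttpLKO and 1205, 933 and 1641 in DKO CPM. Unlike those of Saa1, all 3 DKO pools were above all other pools, though replicate 2 was the lowest of the 3. For DKO, Lrg1 had a log2 fold change of 0.90 ± 0.22 against MttpLKO and 0.78 ± 0.22 against control (adjusted p = 0.183 and 0.218, edgeR). Fgl1, a fibrinogen-like protein secreted by hepatocytes, was at 119.8, 134 and 183 CPM in control and 393, 168 and 347 in DKO. These pools overlapped, with a log2 fold change of 1.06 ± 0.28 (adjusted p = 0.202, edgeR). All MttpLKO pools of Fgl1 lay above all control pools, at 0.69 ± 0.28 (adjusted p = 0.648, edgeR). From MttpLKO to DKO the value was 0.37 ± 0.28 (adjusted p = 0.737, edgeR), with overlapping pools. Vnn1, an enzyme that releases pantothenate and cysteamine from pantetheine, was at 33.3, 55.0 and 72.6 in control replicates 1, 2 and 3, 37.5, 44.5 and 29.5 in MttpLKO and 54.7, 93.6 and 97.1 in DKO CPM, with all DKO pools above all MttpLKO pools and a log2 fold change of 1.14 ± 0.29 (adjusted p = 0.191, edgeR). Mbl2, a lectin that activates complement, was higher in all MttpLKO pools than in all control pools, at log2 0.41 ± 0.12 (adjusted p = 0.395, edgeR).

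Of 16 further negative acute phase genes, all tested, edgeR called 0 in each comparison, and their log2 fold changes ran from -0.41 to 0.68. At an unadjusted p under 0.05 there were 2 higher in MttpLKO against control (Serpina6 and Serpina7), beside 6.97% of all genes. There was 1 lower in DKO against MttpLKO (Serpina6), beside 9.1%, and 1 higher in DKO against control (Serpina7), beside 11.2%. Serpina7, the thyroxine-binding globulin of plasma, was at 23.9, 30.7 and 28.8 in control replicates 1, 2 and 3, 36.9, 37.7 and 49.7 in MttpLKO and 47.3, 34.9 and 50.9 in DKO CPM. All MttpLKO and all DKO pools lay above all control pools, opposite in direction to Ttr. Against control the log2 fold change of Serpina7 was 0.58 ± 0.17 in MttpLKO and 0.68 ± 0.17 in DKO (adjusted p = 0.352 and 0.162, edgeR). For Serpina6, the corticosteroid-binding globulin, it was 0.56 ± 0.17 in MttpLKO against control and -0.41 ± 0.17 in DKO against MttpLKO (adjusted p = 0.389 and 0.493, edgeR). For the 16 genes limma-voom called 0 in each comparison, and DESeq2 called 0, 0 and 1, the higher level of Serpina7 in DKO against control.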

How the data were processed

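The authors deposited 1 table per library with whole-number read counts per gene, not normalized, beside CPM and RPKM columns, per the file headers. The deposited CPM and RPKM values were recomputed from counts and gene lengths and differed by at most 5.1e-11 and 4.7e-11; they entered no test. The submitters' processing notes name STAR 2.0.4b, featureCounts 1.4.5 and Subread, without their roles. Build, annotation, strand setting and how multi-mapped reads were counted are not given in the sources. Identifiers were matched to symbols for 97.26% of genes, and 14 of 35 members had the same start and end as in GENCODE M21.

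Genes were kept by filterByExpr (minimum count 10) in edgeR 4.0.16 (R 4.3.3), scaled by TMM and tested by quasi-likelihood F tests (edgeR) in 1 fit of 3 genotype means over 9 libraries, with Benjamini-Hochberg adjustment over 14741 genes and a threshold of 0.05. SE was the log2 fold change over the root of F. Printed CPM and RPKM use TMM-scaled library sizes. The common dispersion was 0.0335. The tests were also run on simulated data. Replicates differed by more than sampling noise (chi-square over its degrees of freedom, 20.75 to 67.55). The members and lists were chosen with earlier results of these data known. By rule, per-library values are given for members called in any comparison, the 6 with the smallest p in each, and 14 named ones. Outside this rule, library values are also given for Saa4, Steap4, Crp, Serpina3m, Lbp and Cd14. Fold changes of these members are not given under the alternatives. From the lists of upstream and of other acute phase genes, called genes and the 2 with the smallest p in each comparison are named. Vnn1, Mbl2, Serpina6, Il6 and Tnf were added after their values were seen. Alternatives were other scalings and filters, DESeq2 1.42.0, limma-voom (limma 3.58.1), the 6 compared libraries, a replicate block and leaving out each library.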

Additional observations from a re-analysis of the deposited data

How the results depend on the processing

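The 20 members given per library by rule had 1140 values under 19 alternatives. Of these, 1084 kept direction and side of the threshold, 27 passed it, 4 lost it (all Lcn2, DKO against control) and 25 changed sign. The cause of the changes below was not tested. All genes called, in MttpLKO against control, DKO against MttpLKO and DKO against control, numbered 51, 59 and 49; with at least 1 count as the only filter 171, 180 and 201, with DESeq2 165, 214 and 256, with the 6 compared libraries 50, 34 and 78. Leaving out single libraries gave 14 to 54, 22 to 73 and 15 to 100. Members called, 0, 0 and 1, became 2, 4 and 6 with at least 1 count, 2, 2 and 5 with DESeq2, and 0 to 1, 0 to 3 and 0 to 5 without single libraries. With the replicate number as a block, Lcn2 was called in MttpLKO against control (1 member, log2 1.72, adjusted p = 0.0344, edgeR), and all genes called were 35, 43 and 40; deviations of same-numbered pools correlated at -0.244 to 0.0721, so the numbers were not taken to pair pools. The block also ended the call of Hamp (adjusted p = 0.0824). The alternatives for Hamp were chosen after seeing the data.

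Values that changed sign are the following. In MttpLKO against control limma-voom gave -0.0657 for Saa1, -0.0805 for Saa2 and 0.0392 for Saa3, and the block 0.0463 for Saa3; leaving out libraries gave -0.61 to 0.45, -0.48 to 0.32 and -0.36 to 0.20, and -0.0778 to 0.21 for Stat3. In DKO against MttpLKO Hp was -0.00071 with upper quartile scaling and -0.17 to 0.19 without single libraries, Apcs -0.28 to 0.12, Il1rn -0.20 to 0.53, Stat3 -0.0012 to 0.40, Mt1 -1.27 to 1.49 and Mt2 -1.04 to 1.87. In DKO against control Orm1 was -0.0137 to 0.31 and Socs3 -0.0151 to 1.18. Other scalings moved the median of all genes by -0.0204 to 0.00503.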
